A study of Homo sapiens with 42 samples.

Results

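The genes described here are the small nucleolar RNA (snoRNA) and small Cajal body RNA (scaRNA) genes counted in nuclear RNA of K562 cells. Rows of the nuclear count table were taken when their symbol was SNORA, SNORD or SCARNA followed by a number and they held at least 10 counts in at least 3 of 15 nuclear libraries. This gave 138 of 58243 rows, out of 552 rows with such a symbol. The members were 68 SNORA, 56 SNORD and 14 SCARNA rows with 132 distinct symbols, since SNORA75, SNORA70 and SNORA72 name several rows. The members were chosen by their measured counts, so their presence in nuclear RNA is not a finding. For the same reason the counts of members that changed are descriptions, read against the share of all genes that changed.

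K562 is an established line of chronic myeloid leukaemia cells that grow under the BCR-ABL1 kinase. Nuclear RNA depleted of ribosomal RNA was sequenced from untreated cells (CTRL) and from cells given 110 mM KCl for 1 h, an osmotic stress (KCl 1h). Other cells received 5 µM JTE-607 for 1 h (JTE 1h), a compound that inhibits the CPSF73 nuclease of 3′ end cleavage, or 1 µM imatinib, the BCR-ABL1 inhibitor, for 1 h (IM 1h) or 18 h (IM 18h). Each of the 5 groups had 3 biological replicates, all of 1 cell line, and poly(A) mRNA of whole cells was sequenced in 27 further libraries. Levels are given as CPM, counts scaled to a common library size with TMM factors. The nuclear libraries held from 16175394 to 25103205 counts. All 10 K562 marker genes had at least 10 counts in every nuclear library, while 2 of 8 markers of other lineages did. The summed level of the K562 markers, which include fetal and embryonic globin genes, was 3518 to 4680 CPM in CTRL and 8465 to 9542 CPM in IM 18h.

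A box C/D snoRNA, named SNORD, guides 2′-O-methylation of ribosomal RNA and is held by fibrillarin (FBL), NOP56, NOP58 and SNU13. A box H/ACA snoRNA, named SNORA, guides pseudouridylation and is held by dyskerin (DKC1), GAR1, NHP2 and NOP10. scaRNAs carry either kind of box, or both, and guide the same modifications on spliceosomal RNAs in Cajal bodies. A few snoRNAs, such as U3, U14 and U17, act in the cleavage of precursor rRNA instead of, or in addition to, modification. Most human snoRNAs lie in introns of host genes and are trimmed from the spliced intron, whereas U3 has genes and promoters of its own.

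The sequences of an intronic cluster show the 2 families side by side, because its members share a host and were not all called with KCl below. RPS12, which encodes a protein of the small ribosomal subunit, holds SNORD101 (chr6:132815307-132815379), SNORD100 (chr6:132816802-132816877) and SNORA33 (chr6:132817219-132817348), all on the plus strand of hg38. Capitals mark the C box (searched as NTGATGA) and D box (CTGA) letters of a SNORD, or the H box (ANANNA) and ACA letters of a SNORA.
SNORD101: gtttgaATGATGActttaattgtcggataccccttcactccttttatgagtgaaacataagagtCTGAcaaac
SNORD100: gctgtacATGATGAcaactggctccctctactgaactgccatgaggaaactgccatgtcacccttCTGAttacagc
SNORA33: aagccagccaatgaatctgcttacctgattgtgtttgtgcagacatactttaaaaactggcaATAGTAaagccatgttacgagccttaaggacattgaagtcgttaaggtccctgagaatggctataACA

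The next 3 are shown because they carry other results: a pair of SNORD genes of the long non-coding host ZFAS1, and SCARNA22 of the histone methyltransferase gene NSD2. SNORD12C lies at chr20:49278940-49279028, SNORD12B at chr20:49280319-49280409 and SCARNA22 at chr4:1974636-1974760, all on the plus strand. Capitals mark the same letters, and SCARNA22 holds H and ACA boxes.
SNORD12C: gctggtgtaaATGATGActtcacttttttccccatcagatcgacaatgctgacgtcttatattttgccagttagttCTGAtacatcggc
SNORD12B: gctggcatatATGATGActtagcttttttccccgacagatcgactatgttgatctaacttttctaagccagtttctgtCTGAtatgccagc
SCARNA22: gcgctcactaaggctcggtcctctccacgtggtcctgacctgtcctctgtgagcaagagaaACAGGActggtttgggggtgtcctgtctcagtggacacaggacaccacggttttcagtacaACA

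Most members held the box letters of their family in their own strand. Of 50 single-exon SNORD rows, 35 (70%) held NTGATGA in the first 30 bases together with CTGA in the last 20, against 0 of 50 windows of the same length just upstream. Of 67 SNORA rows, 54 (80.6%) held ANANNA near the middle and ACA in the last 10 bases, against 5 of 67 upstream windows (7.46%). A row without a match lacks only these letters in these windows.

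U3 has several near-identical genes on chromosome 17, and their sequences bear on what the counts can mean. In RefSeq each spans 217 bases: SNORD3A at chr17:19188016-19188232 and SNORD3B-1 at chr17:19061912-19062128 on the plus strand, SNORD3B-2 at chr17:19063920-19064136 and SNORD3C at chr17:19190029-19190245 on the minus strand. Capitals mark positions 78 and 108, counted from 1 at the 5′ end.
SNORD3A: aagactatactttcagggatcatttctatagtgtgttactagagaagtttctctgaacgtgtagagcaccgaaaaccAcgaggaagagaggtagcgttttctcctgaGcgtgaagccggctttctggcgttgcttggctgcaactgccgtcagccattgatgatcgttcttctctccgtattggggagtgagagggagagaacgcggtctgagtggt
SNORD3B-2: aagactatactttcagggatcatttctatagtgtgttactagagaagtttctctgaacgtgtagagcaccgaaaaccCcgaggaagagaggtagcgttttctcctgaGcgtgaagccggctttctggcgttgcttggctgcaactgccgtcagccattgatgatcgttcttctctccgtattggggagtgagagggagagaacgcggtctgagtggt
SNORD3C: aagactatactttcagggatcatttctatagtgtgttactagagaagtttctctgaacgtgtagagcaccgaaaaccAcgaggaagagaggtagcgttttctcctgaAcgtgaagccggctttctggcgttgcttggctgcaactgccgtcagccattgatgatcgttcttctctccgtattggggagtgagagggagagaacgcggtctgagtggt

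SNORD3B-1 and SNORD3B-2 were identical over all 217 bases, SNORD3A differed from both by A78C, and SNORD3A differed from SNORD3C by G108A. The spans in the count table were longer than the RefSeq genes, at 699 bases for SNORD3A, 758 for SNORD3B-1, 791 for SNORD3B-2 and 581 for SNORD3C. Past the RefSeq end, SNORD3A and SNORD3C stayed identical for 364 bases, while SNORD3B-1 and SNORD3B-2 shared 49 bases before their first difference. Only read pairs with 1 location in the genome were kept, so a pair lying wholly in identical bases was not counted for either gene. The counts of each U3 gene are uncertain for this reason. A pair counted for SNORD3B-1 or SNORD3B-2 must hold bases beyond their shared sequence. Such bases can lie upstream of the genes or in the downstream flank that the table counts with them, and which was not tested.

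Of the 138 members, 118 lay inside a gene on the same strand, in 95 host genes. The hosts were protein-coding for 97 rows, long non-coding for 18 and pseudogenes for 3. The 118 hosted members comprised 57 SNORA, 47 SNORD and all 14 SCARNA rows, at a median distance of 150.5 bases from the nearest host exon. The other 20 had no same-strand host, and 13 of these lay within a gene on the opposite strand. Imprinted snoRNA clusters had no row that met the rule.

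The rule kept a smaller share of the SNORD rows than of the other families. Members were 17.8% of the SNORD rows, 31.9% of the SNORA rows and 56% of the SCARNA rows in the table, and their median lengths were 84.5, 135 and 141.5 bases. Rows of the same families that were not members had median lengths of 80.5, 132 and 136 bases. Library fragments longer than most box C/D RNAs would limit how well a mature SNORD is represented, which was not tested. A count on a hosted member can come from the trimmed snoRNA or from intron sequence of the unspliced host, and the counts do not separate these. Just inside the rule, with 10 counts in exactly 3 libraries, stood 9 rows such as SNORD105B, SNORD92 and SNORA84. Just outside, with 2 such libraries, stood SNORA74, SNORD9 and SNORD124, whose highest counts were 12, 11 and 11. Of the members, 90 reached 10 counts in some library of all 5 groups, 68 reached it in all 15 libraries and 1 reached it in a single group.

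U3 dominated the members. SNORD3A took from 1470 to 2174 CPM in the CTRL libraries, a mean of 1888 ± 370 (SD, n = 3), while all other members together took 770 ± 58.7 CPM. Per kilobase of counted length and over all 15 libraries, SNORD3A stood at 2909 CPM per kb. SNORA73B, a U17 gene in SNHG3, followed at 1348 CPM per kb. Others among the 10 highest were SNORA71A at 214, SNORD17 at 176, SNORA54 at 157, SCARNA7 at 152, SNORA71C at 141, SNORD99 at 129 and SCARNA22 at 111 CPM per kb. Levels fell away quickly: the median member held 19.6 counts per library.

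A gene was called when its log2 fold change (log2FC) exceeded 0.6 in size and its p, from edgeR's quasi-likelihood test over all 21929 nuclear genes after Benjamini-Hochberg adjustment, was below 0.05. Of the 138 members, 132 passed the filter on low counts and were tested. All replicates are of 1 cell line, and p-values measure the spread between them. CPM are relative levels and do not show the number of cells or the total RNA per cell. In CPM a changed member cannot be told apart from a changed share of other RNAs.

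Neither of the most abundant members was called in any comparison with CTRL. SNORD3A was at 2174, 2020 and 1470 CPM in the 3 CTRL libraries, at 2436, 2607 and 1639 CPM in KCl 1h, and at 2159, 2218 and 1520 CPM in IM 18h. The groups overlapped, and in each the library of replicate 3 was the lowest. SNORA73B was at 242, 283 and 249 CPM in CTRL and at 318, 321 and 242 CPM in IM 18h (log2FC 0.19 ± 0.12 SE, edgeR adjusted p 0.226), although the exons of its host SNHG3 fell at IM 18h (log2FC -1.04 ± 0.19 SE, edgeR adjusted p 0.000378). For SNORD3A in KCl 1h the log2 fold change was 0.24 ± 0.21 SE (edgeR adjusted p 0.489). Each KCl library lay above the CTRL library of the same replicate number. With that number as a block the edgeR adjusted p was 0.00852, while the fold change stayed below what a call requires.

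The first comparison asked what 1 h of osmotic stress did to these RNAs. Box C/D members split into opposite directions: 6 SNORD rows rose and 15 fell. No SNORA or SCARNA row rose, whereas 15 SNORA rows and 1 SCARNA row fell. Over all 132 tested members 6 (4.55%) rose and 31 (23.5%) fell, against 15.3% and 8.5% of all tested genes (23.8% in either direction). In 8 members all KCl libraries lay above all CTRL libraries and in 50 below, against 20.8% and 16.7% of all genes. The median log2 fold change was -0.28 for the members and 0.02 for all genes. By family it was -0.47 for SNORD, -0.31 for SNORA and -0.03 for SCARNA. The summed level of SNORD members other than SNORD3A went the other way, from 168 ± 7.15 CPM in CTRL to 218 ± 13.8 CPM in KCl 1h, without overlap. That sum includes SNORD3B-2, SNORD3B-1, SNORD100 and SNORD101, which were called higher, and it was not taken without them. It does not stand for most SNORD rows, since 36 of the 54 tested had a negative log2 fold change. The SNORA sums were 490 ± 39.8 and 485 ± 51.8 CPM, and the scaRNA sums 111 ± 12.6 and 113 ± 11.6 CPM.

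The largest rise belonged to the U3 copy SNORD3B-2, which stood at 8.13, 10.4 and 11.5 CPM in CTRL and at 36.2, 46.3 and 48.3 CPM in KCl 1h. Its log2 fold change was 2.12 ± 0.17 SE (edgeR adjusted p 1.18e-08). SNORD3B-1 went from 1.91 ± 0.27 to 6.24 ± 0.78 CPM (log2FC 1.70 ± 0.19 SE, edgeR adjusted p 5.98e-07). Both had every KCl library above every other nuclear library, and both calls held without any 1 library. SNORD3C was at 2.77, 2.55 and 1.29 CPM in CTRL and at 3.09, 3.72 and 2.77 CPM in KCl 1h and was not called (edgeR adjusted p 0.164). The counts of SNORD3B-1 and SNORD3B-2 come from read pairs that reach beyond their shared sequence, as described above.

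Both box C/D members of RPS12 rose with KCl and its box H/ACA member did not pass the test. SNORD100, a guide for 18S rRNA methylation, was at 5.27, 5.74 and 6.34 CPM in CTRL and at 10.1, 9.91 and 14.9 CPM in KCl 1h (log2FC 1.01 ± 0.21 SE, edgeR adjusted p 0.000782). SNORD101 was at 6.44, 6.97 and 8.22 CPM in CTRL and at 12.5, 13.0 and 15.3 CPM in KCl 1h (log2FC 0.92 ± 0.19 SE, edgeR adjusted p 0.000731). SNORA33, the next snoRNA downstream of SNORD100, was at 5.81, 5.38 and 6.34 CPM in CTRL and at 5.76, 5.58 and 6.79 CPM in KCl 1h. The KCl libraries of both SNORD genes lay above all CTRL libraries, and those of SNORA33 overlapped them (log2FC 0.05 ± 0.20 SE, edgeR adjusted p 0.902). Exons of RPS12 itself were at 756, 821 and 819 CPM in CTRL and at 876, 856 and 906 CPM in KCl 1h and were not called (log2FC 0.14, edgeR adjusted p 0.307).

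The remaining rises were near the threshold. SNORD12C of ZFAS1 was at 4.02, 5.15 and 5.84 CPM in CTRL and at 6.99, 7.77 and 9.12 CPM in KCl 1h (log2FC 0.67 ± 0.22 SE, edgeR adjusted p 0.0233). SNORD104 of SNHG25 went from 5.50 ± 1.33 to 8.50 ± 1.37 CPM (log2FC 0.63 ± 0.19 SE, edgeR adjusted p 0.0184). The groups of both genes did not overlap. The call of SNORD12C was lost without CTRL replicate 1 or 2 or KCl replicate 3, and that of SNORD104 without CTRL replicate 1 or KCl replicate 2 or 3. SNORD12B of ZFAS1 and SNORD99 of SNHG12 had log2 fold changes of 0.59 and 0.57 (edgeR adjusted p 0.0137 and 0.0219), just short of the fold change required. Their hosts differed from each other: ZFAS1 exons had a log2 fold change of 0.51 and were not called, while SNHG12 exons rose by 0.85 (edgeR adjusted p 0.000524).

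**Figure D1:**
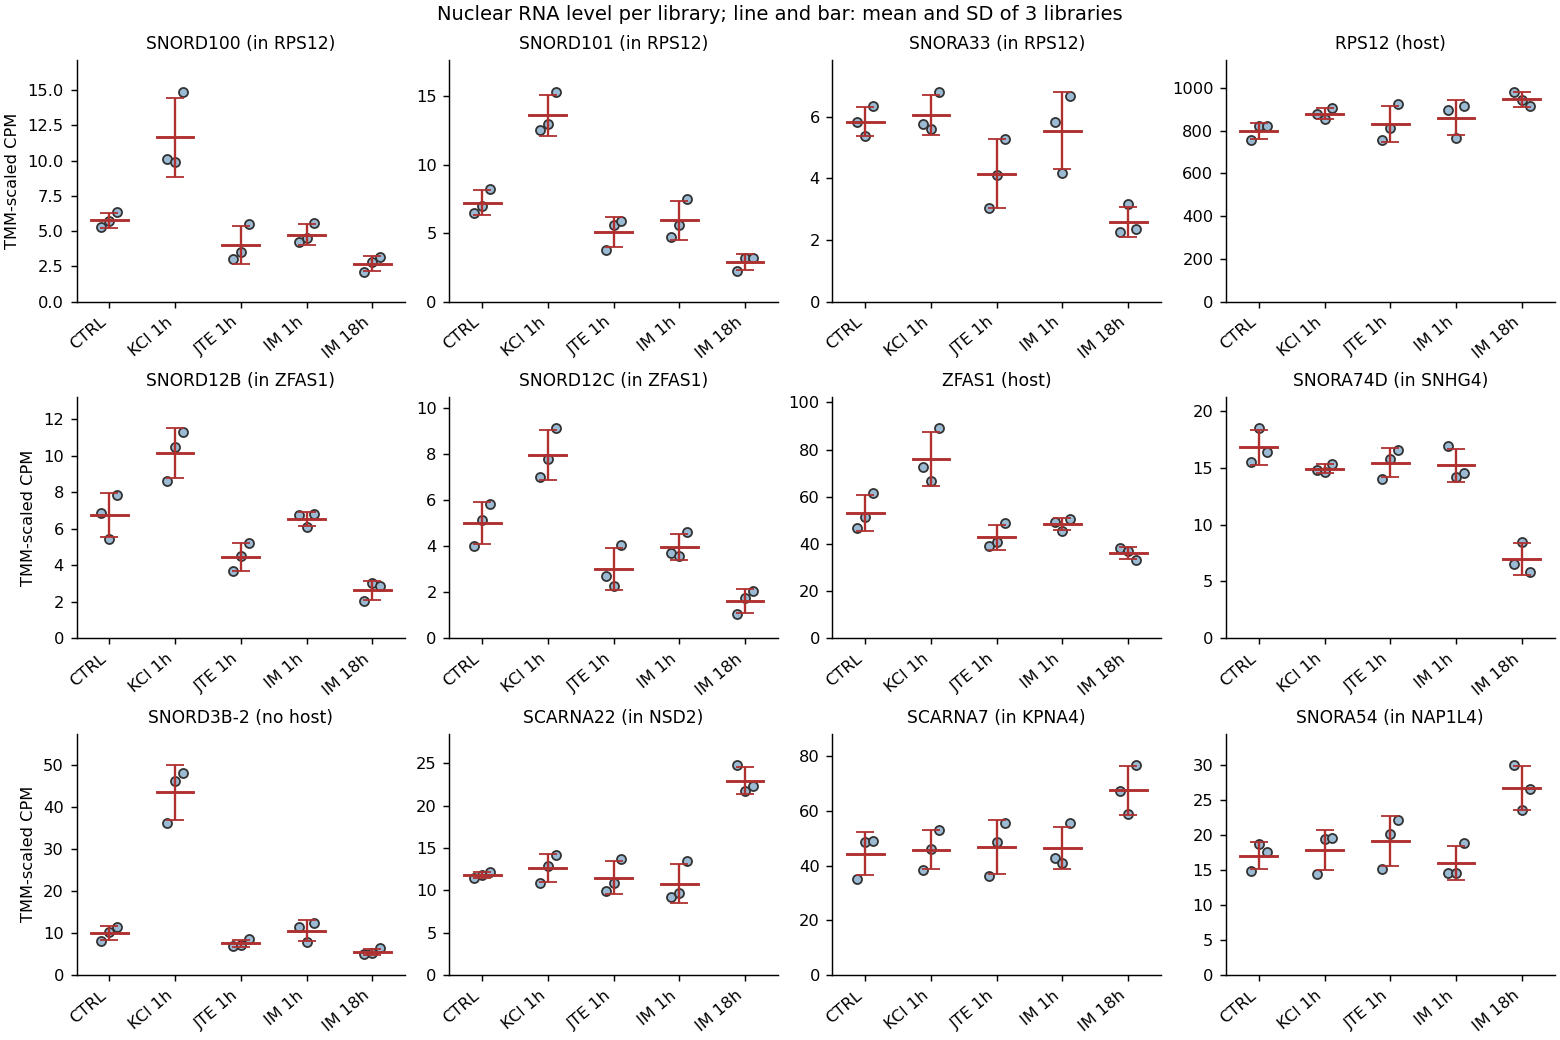
TMM-scaled CPM (vertical axis) of 10 members and the host genes RPS12 and ZFAS1 in each of 15 nuclear libraries, by group (horizontal axis). Points are libraries, lines and bars the mean and SD of 3. SNORD3B-2, SNORD100 and SNORD101 are highest in KCl 1h, SCARNA22, SCARNA7 and SNORA54 in IM 18h, and RPS12 exons stay between 756 and 982 CPM.

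Members that fell with KCl were mostly rare. Split at a mean of 50 counts per library, a limit chosen after the values were seen, 6 of the 44 more abundant members rose and 1 fell, whereas 0 of the 88 rarer members rose and 30 fell. Of the 31 that fell, 18 reached 10 counts in no KCl library and so met the rule for members only through other groups, which leaves their number a description. Among the 16 more abundant SNORD rows the median log2 fold change was 0.55, and among the 38 rarer ones it was -0.75. SNORD59A in the ATP synthase gene ATP5F1B was at 1.12, 1.23 and 1.09 CPM in CTRL and at 0.213, 0.233 and 0.243 CPM in KCl 1h (log2FC -2.29 ± 0.33 SE, edgeR adjusted p 1.79e-05). SNORD111 in the splicing factor gene SF3B3 was at 0.804, 1.14 and 0.792 CPM in CTRL and at 0.107, 0.140 and 0.194 CPM in KCl 1h (log2FC -2.58 ± 0.43 SE, edgeR adjusted p 8.73e-05). Both genes, named here after their values were seen, had all KCl libraries below every other nuclear library. Neither reached 10 counts in a KCl library, so both are among the 18 and their p-values are descriptions too.

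Several of the falling members shared a host. In WDR43, which encodes a ribosome assembly factor, SNORD53 and SNORD53B both fell (log2FC -1.86 and -2.13). SNORD111B of SF3B3, beside SNORD111, was also called, but it reached 10 counts in CTRL libraries only and so could be a member only by being higher there. Of the 3 members of NOP58, 2, SNORD11 and SNORD70, fell (log2FC -1.30 and -1.77). These hosts were not called, with log2 fold changes of -0.03 for WDR43, -0.10 for SF3B3 and -0.02 for NOP58. SNORD53 and SNORD70 reached 10 counts in only 3 of the 5 groups, so their falls are descriptions as well. Of the 25 hosted members that fell with KCl, the host exons fell for 1 and were not called for 24. Among 12 tested members without a same-strand host that lie within a gene on the opposite strand, 6 fell, against 8.5% of all genes. Their median log2 fold change was -1.25. Some of the 6, such as SNORA63, reached 10 counts in no KCl library and met the rule only through other groups. The share and the median are therefore descriptions. Reads were counted without regard to strand, so such a row can hold reads of the gene opposite. For SNORA63, SNORA74C-1 and 1 of the SNORA75 rows no KCl library held more than 3 counts, and no fold change is given.

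A host could also fall without its members being called. SNHG4 exons stood at 51.5, 49.2 and 53.0 CPM in CTRL and at 20.7, 22.5 and 21.3 CPM in KCl 1h (log2FC -1.25 ± 0.15 SE, edgeR adjusted p 2.55e-06). The pair of U19 genes in SNHG4, SNORA74D and SNORA74A, had log2 fold changes of -0.17 and -0.12 (edgeR adjusted p 0.417 and 0.706).

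**Figure D2:**
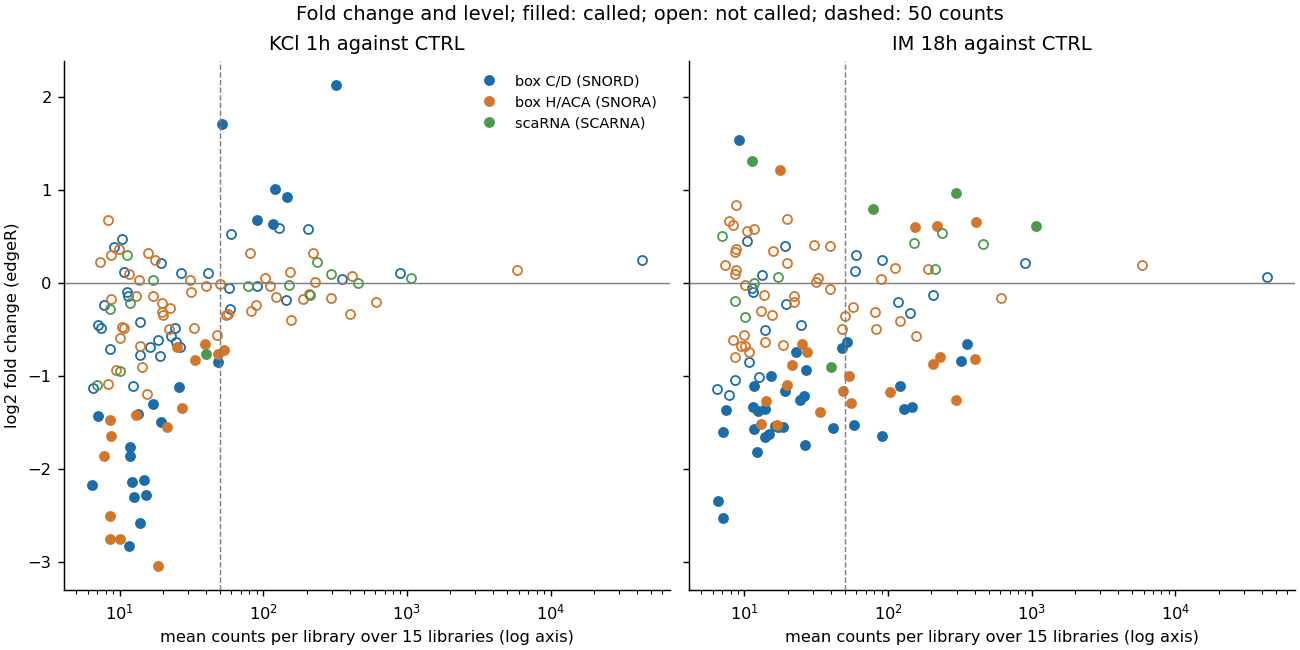
Log2 fold change of 132 members (vertical axis) against mean counts per library over 15 nuclear libraries (horizontal log axis) for KCl 1h and IM 18h against CTRL, with filled points called and the dashed line at 50 counts. With KCl all 6 rises lie right of the line and 30 of 31 falls left of it.

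JTE-607 for 1 h moved few members past the threshold. Of 132 tested members 0 rose and 3 (2.27%) fell, against 7% and 1.51% of all genes (8.52% in either direction). In 1 member all JTE libraries lay above CTRL and in 30 below, against 13.7% and 14.6% of all genes. The median log2 fold change was -0.30 for members and -0.01 for all genes, and it was negative for 101 of the 132. SNORD63B of HSPA9 was at 1.74, 1.46 and 2.43 CPM in CTRL and at 0.783, 1.31 and 0.928 CPM in JTE 1h (log2FC -0.90 ± 0.27 SE, edgeR adjusted p 0.0349). SNORA28 of EIF5 and SNORA55 of PABPC4 fell by 0.88 and 0.63 on the log2 scale (edgeR adjusted p 0.0213 and 0.0359). These 3 are named after their values were seen. Without CTRL replicate 3 no member was called and without JTE replicate 1 only 1 was, whereas with the replicate block 11 fell.

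The direct comparison at 1 h set KCl against JTE-607. Relative to JTE 1h, 10 SNORD rows and no SNORA or SCARNA row were higher in KCl 1h, and 6 SNORD and 6 SNORA rows were lower. That is 7.58% and 9.09% of the 132 tested members, against 10.7% and 5.24% of all genes (15.9% in either direction). The groups did not overlap in 13 members that were higher and 24 that were lower, against 17.2% and 11.8% of all genes. SNORD3B-2 differed by a log2 fold change of 2.52 ± 0.17 SE (edgeR adjusted p 4.75e-09), SNORD100 by 1.53 ± 0.21 SE (edgeR adjusted p 2.18e-05) and SNORD101 by 1.42 ± 0.19 SE (edgeR adjusted p 1.5e-05). SNORD12B, at 8.64, 10.5 and 11.3 CPM in KCl 1h and at 3.67, 4.50 and 5.20 CPM in JTE 1h, differed by 1.19 ± 0.18 SE (edgeR adjusted p 4.82e-05). For SNORD12B the CTRL libraries, at 6.88, 5.47 and 7.87 CPM, lay between the groups without overlap. SNORA33 was not called here either (log2FC 0.54, edgeR adjusted p 0.08). In a fit of only these 6 libraries, 7 members in place of 12 were lower.

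Imatinib for 1 h called 0 of 132 members in either direction, while 0.00456% of all genes rose and 0.041% fell (0.0456% in either direction). At an unadjusted p under 0.05 there were 2 members, and DESeq2 called 0. The IM 1h libraries lay above all CTRL libraries in 4 members and below in 16, against 3.71% and 6.12% of all genes. The median log2 fold change was -0.10 for members and 0.00 for all genes. With the replicate block 1 member fell.

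**Figure D3:**
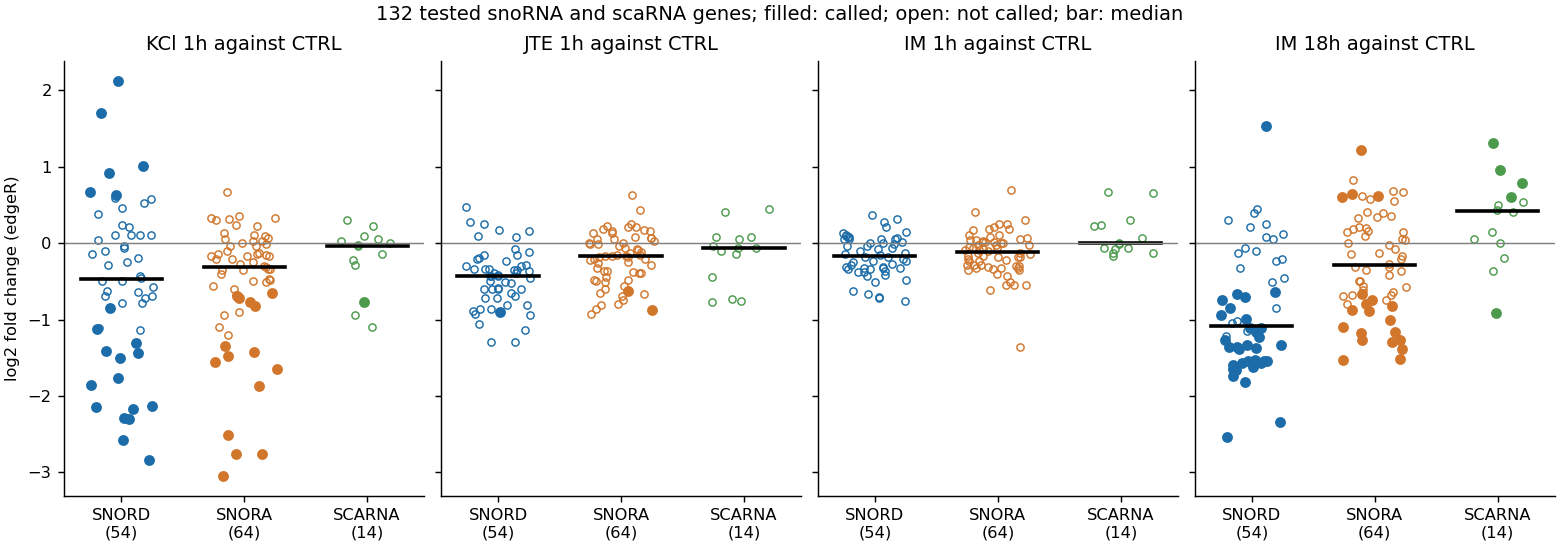
Log2 fold change against CTRL (vertical axis) of the 54 SNORD, 64 SNORA and 14 SCARNA rows tested, in 4 panels by treatment. Filled points are called, open points not, and bars are medians. At IM 18h the medians are -1.08 for SNORD, -0.29 for SNORA and 0.42 for SCARNA.

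After 18 h of imatinib falls were most frequent among SNORD rows, with no test made between families. Of 54 SNORD rows 32 fell and 1 rose, of 64 SNORA rows 16 fell and 4 rose, and of 14 SCARNA rows 1 fell and 4 rose. The median log2 fold changes were -1.08, -0.29 and 0.42 in that order, with ranges that overlapped: -2.54 to 1.53, -1.53 to 1.22 and -0.91 to 1.31. Over all 132 tested members 9 (6.82%) rose and 49 (37.1%) fell, against 17.2% and 15.4% of all genes (32.6% in either direction), whose median was 0. Of the 49 that fell, 11 reached 10 counts in no IM 18h library. They met the rule for members only through other groups, which leaves the number of falls a description. The libraries did not overlap with CTRL in 15 members that were higher and 60 that were lower, against 26.5% and 27.1% of all genes. The summed level of all SNORD members other than SNORD3A was 168 ± 7.15 CPM in CTRL, 160 ± 4.14 CPM in IM 1h and 125 ± 16.8 CPM in IM 18h. That of the scaRNAs was 111 ± 12.6 CPM in CTRL, 104.6 to 129.8 CPM in the IM 1h libraries and 162 ± 10.2 CPM in IM 18h. SNORA members summed to 490.4 ± 39.8 CPM in CTRL and 489.6 ± 47.1 CPM in IM 18h. SNORA73B was the largest part of that sum, and without it the sums were 232 ± 21.6 CPM in CTRL and 196 ± 3.80 CPM in IM 18h, which did not overlap.

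SCARNA22 showed the clearest rise. Its libraries were at 11.4, 11.8 and 12.1 CPM in CTRL, at 9.21, 9.70 and 13.5 CPM in IM 1h and at 24.8, 21.7 and 22.3 CPM in IM 18h (log2FC 0.96 ± 0.15 SE against CTRL, edgeR adjusted p 2.92e-05). Every IM 18h library lay above all 12 others. Exons of its host NSD2 were not called (log2FC 0.19, edgeR adjusted p 0.0724).

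SCARNA7 rose while its host fell. It was at 35.2, 48.7 and 49.1 CPM in CTRL and at 67.2, 59.0 and 76.8 CPM in IM 18h (log2FC 0.61 ± 0.17 SE, edgeR adjusted p 0.00739), and the call was lost without CTRL replicate 1 or IM 18h replicate 3. Exons of KPNA4, a nuclear import receptor gene, were at 234, 187 and 172 CPM in CTRL and at 130, 125 and 107 CPM in IM 18h (log2FC -0.71, edgeR adjusted p 0.000303). All 7 scaRNAs with a mean of at least 50 counts had a positive log2 fold change, the lowest 0.15 for SCARNA6, and in 5 of them the IM 18h and CTRL libraries did not overlap. SCARNA21 and SCARNA5, at 0.54 and 0.41 (edgeR adjusted p 0.00929 and 0.0153), missed the required fold change. The 7 rarer scaRNAs had a median of 0.00, with 4 of 7 negative, a range of -0.91 to 1.31, 1 rise and 1 fall.

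SNORA54, in an intron of the histone chaperone gene NAP1L4, was at 14.9, 18.7 and 17.5 CPM in CTRL and at 29.9, 23.6 and 26.5 CPM in IM 18h (log2FC 0.65 ± 0.16 SE, edgeR adjusted p 0.00206). SNORA49 of EP400 went from 8.58 ± 1.01 to 13.1 ± 0.84 CPM (log2FC 0.61 ± 0.14 SE, edgeR adjusted p 0.00118). The groups of both genes did not overlap, and neither host was called. Both calls were lost without IM 18h replicate 1, and that of SNORA49 also without CTRL replicate 1. Over all members, 5 in place of 9 rose without IM 18h replicate 1.

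Both U19 genes of SNHG4 fell at 18 h. SNORA74D was at 15.5, 18.4 and 16.4 CPM in CTRL and at 6.53, 8.51 and 5.85 CPM in IM 18h (log2FC -1.26 ± 0.14 SE, edgeR adjusted p 4.33e-07). SNORA74A went from 11.4 ± 1.65 to 6.14 ± 1.73 CPM (log2FC -0.88 ± 0.19 SE, edgeR adjusted p 0.000728). The host SNHG4 fell too, by 1.76 on the log2 scale (edgeR adjusted p 3.41e-08). SNORA71C of SNHG17 fell by 0.82 (edgeR adjusted p 0.0105, lost without CTRL replicate 3 or IM 18h replicate 1) and SNORA26 of DANCR by 0.80 (edgeR adjusted p 0.000239), with hosts that fell by 1.38 and 0.92.

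The U3 copies and other rRNA processing snoRNAs took different courses at 18 h. SNORD3B-2 was at 5.14, 5.16 and 6.44 CPM, below all CTRL libraries (log2FC -0.85 ± 0.18 SE, edgeR adjusted p 0.000736). SNORD3B-1 fell by 0.64 (edgeR adjusted p 0.0207), a call that did not hold without CTRL replicate 2, without CTRL replicate 3 or without IM 18h replicate 1. SNORD14E, a U14 gene in HSPA8, was at 1.83, 2.00 and 3.52 CPM in CTRL and at 0.531, 1.24 and 0.702 CPM in IM 18h (log2FC -1.56 ± 0.36 SE, edgeR adjusted p 0.00133). SNORD14A, the U14 gene in RPS13, fell by 0.70 (edgeR adjusted p 0.0404), a call lost in 4 of the 6 fits that left out 1 library. SNORD3A, SNORD3C and SNORA73B were not called.

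Members in ribosomal protein genes fell at 18 h while those genes did not. Of 12 such members 10 fell, against 15.4% of all genes, with a median log2 fold change of -1.06. None of the 10 host genes was called, and their log2 fold changes ran from -0.04 to 0.25 with a median of 0.17. In RPS12, SNORD101 was at 2.20, 3.20 and 3.22 CPM, SNORD100 at 2.12, 2.82 and 3.16 CPM and SNORA33 at 2.25, 3.15 and 2.34 CPM in IM 18h, all below every CTRL library. Their log2 fold changes were -1.34, -1.11 and -1.18 (edgeR adjusted p 3.17e-05, 0.000593 and 0.000171). RPS12 exons stood at 982, 942 and 913 CPM (log2FC 0.24). SNORD83A of RPL3 fell by 1.53 (edgeR adjusted p 0.000107) beside a host change of 0.25.

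ZFAS1 members followed the same direction as their host with a larger size. SNORD12C was at 1.06, 1.77 and 2.05 CPM in IM 18h (log2FC -1.65 ± 0.25 SE, edgeR adjusted p 2.1e-05) and SNORD12B at 2.04, 3.01 and 2.87 CPM (log2FC -1.36 ± 0.19 SE, edgeR adjusted p 9.67e-06). ZFAS1 exons went from 46.8, 51.2 and 61.7 CPM to 38.4, 36.8 and 33.3 CPM, with a log2 fold change of -0.56 that missed the threshold. Over all members of SNHG, GAS5 or ZFAS1 hosts, 7 of 15 fell, against 15.4% of all genes.

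Some hosts fell together with their members, and those given here were picked after their values were seen. All 3 members of GNL3, all 3 of NOP58, 2 of 3 of the nucleolin gene NCL, both tested members of WDR43 and both of TSR1 fell, and the exons of each host fell by 0.91 to 1.63 on the log2 scale. The chaperone gene HSPA9 and both its members fell too. Not all of these members reached the counts of the rule in every nuclear group. The exceptions were SNORD19, SNORD19C and SNORD69 of GNL3, SNORD11B and SNORD70 of NOP58, SNORD53 and SNORD53B of WDR43, and SNORD91A of TSR1. Their falls are descriptions, as are the numbers of falling members given for these hosts. Other hosts of ribosome assembly factors fell while the member within them was not called. NOL11 fell by 0.90 and URB1 by 1.85. SNORA38B and SNORA80A within them had log2 fold changes of -0.21 and -0.50 (edgeR adjusted p 0.593 and 0.0522). Of the 46 hosted members that fell at 18 h the host fell for 24 and was not called for 22. Of the 9 hosted members that rose, the host rose for 1, fell for 2 and was not called for 6.

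**Figure D4:**
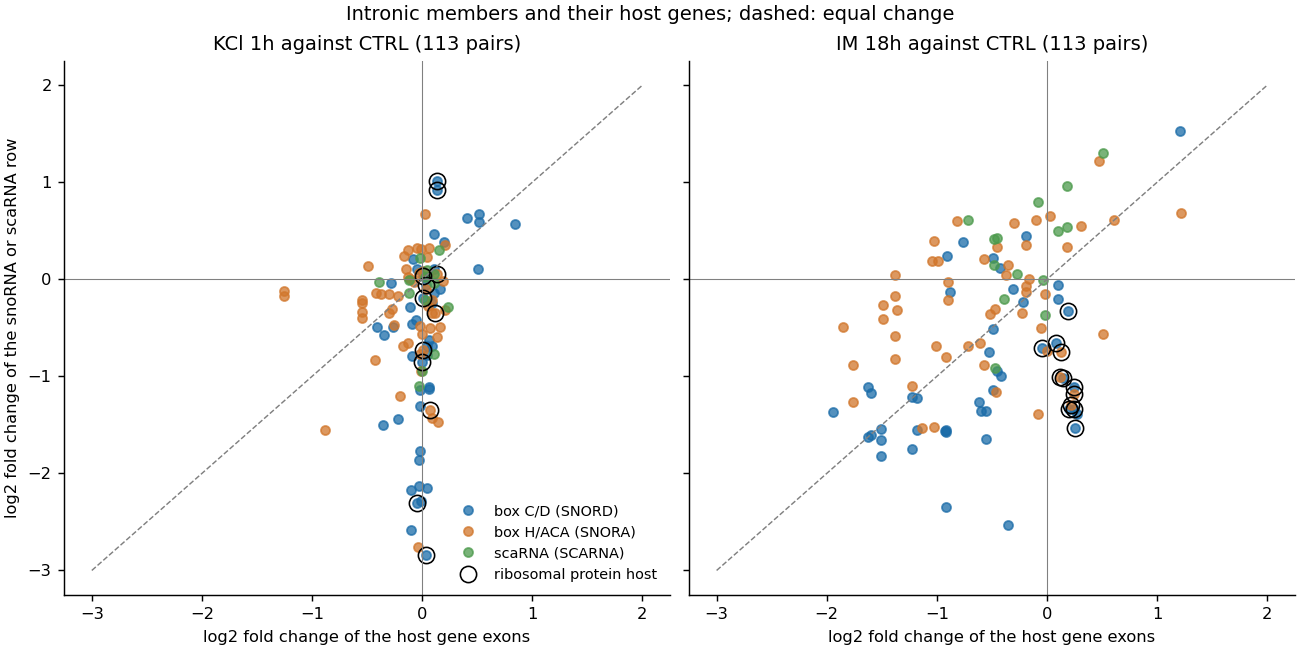
Log2 fold change of 113 hosted members (vertical axis) against that of the exons of their host gene (horizontal axis), for KCl 1h and IM 18h against CTRL; the dashed line marks equal change and black rings mark ribosomal protein hosts. With KCl hosts lie near 0 while members spread; at IM 18h ringed members lie below 0 with hosts between -0.04 and 0.25.

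Fold changes of members and hosts were set side by side over 113 tested pairs. With KCl the median log2 fold change was -0.27 for members and -0.01 for hosts, and the correlation across pairs was r = 0.15 (Spearman rho 0.23). With JTE-607 the medians were -0.29 and -0.02 and r was -0.14. At IM 18h the medians were -0.50 and -0.48, with r = 0.42 and rho 0.38. By family, over 46 SNORD pairs r was 0.45 with KCl (rho 0.53) and 0.46 at IM 18h (rho 0.46), and over 53 SNORA pairs it was 0.01 and 0.33. The 113 pairs share libraries and 91 hosts, so these correlations are descriptions. At IM 18h the SNORD medians were -1.19 for members and -0.54 for hosts. The SNORA medians were -0.31 and -0.48, and the SCARNA medians 0.42 and -0.18. Over all 113 pairs at IM 18h the median of the differences within pairs, member minus host, was 0.055, with 51 members below their host.

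The protein partners of these RNAs were not called at 1 h and fell at 18 h. Of 31 genes for the core proteins, assembly, cap and trafficking factors and trimming of snoRNAs, 0 were called with KCl, JTE-607 or imatinib at 1 h. At IM 18h 17 fell, 0 rose and 14 were not called, with a median log2 fold change of -0.69, against 15.4% of all genes lower and 17.2% higher. All 4 box C/D core genes fell, from -0.69 for FBL to -1.47 for NOP56, and all 4 box H/ACA core genes did, from -0.64 for DKC1 to -1.10 for GAR1. Of 9 assembly factors 6 fell, the most NUFIP1 at -1.61. In the cap and trafficking group NOLC1, a Cajal body and nucleolar chaperone, fell by 1.72 and SMN1 by 1.10, and of 6 trimming factors only EXOSC3 fell, by 0.76. SMN1 has a near-identical copy, SMN2, so its count is uncertain.

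The imatinib times were also compared directly. Relative to IM 1h, 9 members were higher and 37 lower at IM 18h, that is 6.82% and 28% of those tested, against 16.8% and 14.5% of all genes (31.3% in either direction). The 2 times did not overlap in 19 members that were higher and 50 that were lower, against 25.9% and 26.2% of all genes. By family 23 of 54 SNORD, 13 of 64 SNORA and 1 of 14 SCARNA rows were lower. SCARNA22 differed by 1.09 ± 0.15 SE (edgeR adjusted p 7.62e-06) and SNORA54 by 0.74 ± 0.16 SE (edgeR adjusted p 0.000727). Without IM 18h replicate 1 or IM 1h replicate 1, 4 members in place of 9 were higher.

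The poly(A) mRNA libraries, whose counts the choice of members did not use, gave a second set of counts. These libraries were selected for poly(A) RNA, so they need not measure the trimmed snoRNA. Whether their counts come from trimmed snoRNA or from longer host or flanking sequence was not tested. In CTRL, nuclear levels lay above mRNA levels without overlap for 135 of 138 members, with a median ratio of 8.20 over the 127 members that had counts in both. Only 44 members had 10 counts in 3 or more of the 27 mRNA libraries, and 77 had them in none. The mRNA fit, added after these values were seen, tested 40 members among 18095 genes.

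In mRNA, KCl raised several of the box C/D members that rose in the nucleus. At 1 h 6 of 40 members rose and 6 fell, against 2.51% and 2.94% of all genes, and at 3 h 8 rose and 6 fell, against 4.55% and 7.33%. Of the 6 members that rose in nuclear RNA with KCl 5 were tested in mRNA, and 4 of them rose there at 1 h and 5 at 3 h. SNORD100 was at 1.27, 0.891 and 1.39 CPM in mRNA of CTRL, at 3.78, 6.60 and 5.05 CPM at 1 h and at 2.79, 4.96 and 3.76 CPM at 3 h of KCl (log2FC 2.13 ± 0.33 SE, edgeR adjusted p 0.000148 at 1 h, and 1.70 at 3 h). SNORD101 was at 1.76, 1.10 and 1.12 CPM in CTRL and at 3.83, 6.14 and 5.14 CPM at 1 h (log2FC 1.93 ± 0.43 SE, edgeR adjusted p 0.00485). Both calls held without any 1 library. SNORA33 had log2 fold changes of 0.63 at both times and was not called (edgeR adjusted p 0.55 at 1 h and 0.349 at 3 h). In neither fraction was SNORA33 tested against SNORD100 or SNORD101. RPS12 mRNA had log2 fold changes of 0.08 at 1 h and 0.42 at 3 h and was not called.

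SNORD12C of ZFAS1 and SNORD99 of SNHG12 rose at both times as well, as did SNORD3A. SNORD99 was at 2.59, 0.943 and 2.17 CPM in CTRL and at 5.44, 7.60 and 5.84 CPM at 1 h (log2FC 1.73 ± 0.41 SE, edgeR adjusted p 0.00796). SNORD3A held 11, 10 and 13 counts in the CTRL mRNA libraries, 36, 87 and 87 counts at 1 h and 111, 75 and 185 counts at 3 h, that is 0.618 ± 0.10, 1.78 ± 0.29 and 6.04 ± 2.86 CPM. SNORD3B-2 held 0, 0 and 1 counts in CTRL, 5, 20 and 14 at 1 h and 17, 16 and 14 at 3 h, so no fold change is given. ZFAS1 rose in mRNA too, by 0.77 at 1 h and 1.31 at 3 h on the log2 scale, and SNHG12 rose at 3 h by 1.04. KCl 1h replicates 2 and 3 were the deepest mRNA libraries, with 62953314 and 42474454 counts. Without CTRL replicate 2 only 2 members in place of 6 rose at 1 h, SNORD100 and SNORD101.

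Other box C/D members fell in the same mRNA libraries. SNORD14A was at 1.10, 0.629 and 1.62 CPM in CTRL and at 0.207, 0.285 and 0.140 CPM at 1 h, without overlap (log2FC -2.33 ± 0.43 SE, edgeR adjusted p 0.000884). With KCl, nuclear SNORD14A had a log2 fold change of -0.85; the difference between nuclear RNA and mRNA was not tested. RPS13 mRNA had a log2 fold change of -0.01 at 1 h. Without CTRL replicate 1, 3 members in place of 6 fell at 1 h and 2 in place of 6 at 3 h, and without KCl 3h replicate 1 also 2 fell at 3 h.

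After 18 h of imatinib 0 of 40 members rose and 9 fell in mRNA, against 17.2% and 13.2% of all genes. SNORD15B of RPS3, one of the 9, held 13, 4 and 12 counts in CTRL and 2, 2 and 1 counts in IM 18h, so no fold change is given. SNORD99 fell by 1.90 (edgeR adjusted p 0.00408), while its nuclear level was not called; the difference was not tested. SNORD14A fell by 1.42 (edgeR adjusted p 0.0106), a call lost without CTRL replicate 3. Of the 9 that fell, 7 were also among the 23 tested here that fell in nuclear RNA. Without CTRL replicate 1 the number that fell was 3 and without IM 18h replicate 1 it was 4.

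**Figure D5:**
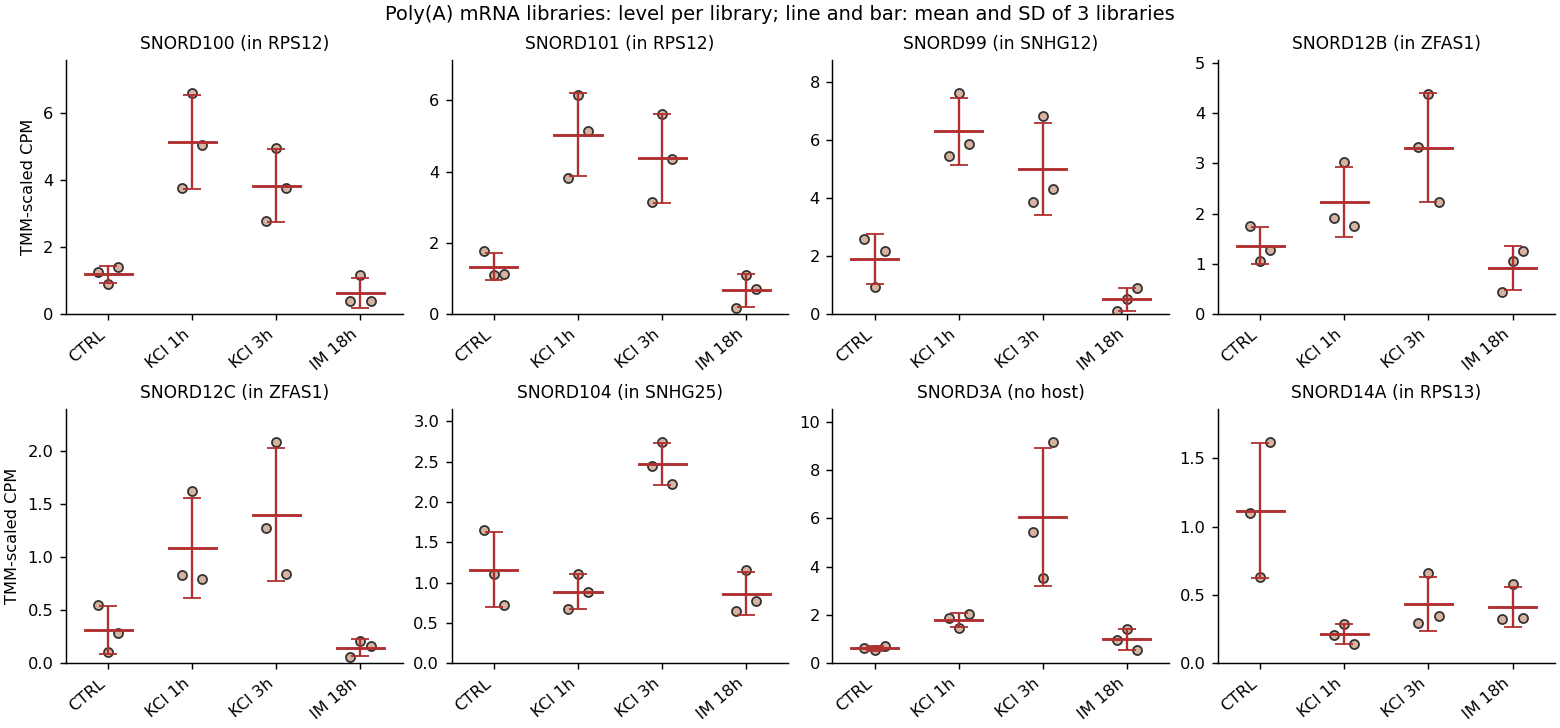
TMM-scaled CPM (vertical axis) of 8 box C/D members in poly(A) mRNA libraries by group (horizontal axis); points are libraries, lines and bars the mean and SD of 3. SNORD100 and SNORD101 lie above CTRL at both KCl times, while SNORD14A lies below it at 1 h.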

How the data were processed

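Nuclear RNA (15 libraries) and poly(A) mRNA (27 libraries) of K562 cells were sequenced as stranded paired reads. What was deposited is a whole-number count of read pairs for each gene, not normalized. The authors trimmed and deduplicated reads with fastp, aligned them to hg38 with STAR, keeping pairs with 1 location, and counted exons with featureCounts without strand; the annotation release was not given in the sources used here. Removal of duplicates without molecular identifiers can lower abundant short RNAs, and pairs over exons of several genes were dropped, which touches 9 members. Positions and hosts come from GENCODE 44, which held 57532 of the 58243 rows, and sequences from hg38 at those positions or from RefSeq spans. Groups and replicate numbers come from the sample titles.

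edgeR 4.0.16 (R 4.3.3) fitted the counts by robust quasi-likelihood with TMM factors after filterByExpr, all libraries of a fraction in 1 fit with a term per group (common nuclear dispersion 0.0176). Levels are CPM, counts scaled by TMM. The fit was tested on simulated data. The alternatives tried were upper-quartile normalization, DESeq2 1.42.0, no fold change threshold, no filter, fits without genes above 1% of counts, fits of only the 6 libraries, a replicate block and leaving out each library. The mRNA fit, its alternatives and the split at 50 counts were added after values were seen. Members and lists were chosen with earlier results of these data known.

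Over genes whose mean exceeded 10 CPM, log2 deviations from the group mean correlated between same-numbered nuclear libraries by 0.235 to 0.891 for CTRL with each treatment and by 0.617 to 0.748 for KCl 1h with JTE 1h, so the numbers pair these libraries. Named were, per comparison, up to 4 called members that rose most and 4 that fell most, if the higher group averaged at least 10 CPM and the groups did not overlap, the 10 highest members and 5 highest scaRNAs per kilobase, the rRNA processing and independently transcribed snoRNAs, and a list of 31 snoRNP genes. Other genes were named after their values were seen, and 1 member and its host are not reported here.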

Additional observations from a re-analysis of the deposited data

Results flagged for a closer look

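The response to imatinib differed between 1 h and 18 h by the test of that difference itself. At 18 h 9 members (6.82%) were higher and 37 (28%) lower than at 1 h. The shares of all genes were 16.8% and 14.5% (31.3% in either direction). Among the members with a mean of at least 10 CPM and no overlap between the times, SCARNA22 (log2 fold change 1.09) and SNORA54 (0.74) were higher at 18 h. SNORA74D (-1.12), SNORD3B-2 (-0.93) and SNORA26 (-0.71) were lower.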

How the results depend on the processing

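With the replicate block, 11 members in place of 3 fell with JTE-607, 1 in place of 0 fell with imatinib at 1 h, and 14 in place of 9 fell in mRNA at 18 h of imatinib. The block moved no other count of members by over 1.5 times. The numbers pair the nuclear libraries with CTRL. For IM 18h with IM 1h, replicates 1 and 3 correlated by 0.509 and 0.557, but replicate 2 by 0.0094. The numbers did not pair the mRNA libraries, where same-number correlations ran from -0.368 to 0.846. Without the filter, 5 members fell with JTE-607 and 1 rose in mRNA at 18 h of imatinib. In the fit of 6 libraries 7 in place of 12 were lower in KCl than JTE-607, and 14 in place of 9 were higher at 18 h than at 1 h of imatinib with upper-quartile normalization or no fold change threshold.

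Leaving out 1 library gave 6 to 9 rises in mRNA at 3 h of KCl, 0 to 3 falls with JTE-607, 5 to 11 rises at IM 18h, 4 to 11 members higher at IM 18h than IM 1h, and with KCl 4 to 8 rises and 24 to 32 falls. In mRNA it gave 2 to 6 rises and 3 to 7 falls at 1 h of KCl, 2 to 9 falls at 3 h, and 0 to 1 rises and 3 to 10 falls at 18 h of imatinib. The median log2 fold change of hosted members minus the median of hosts, -0.0195 at IM 18h, was 0.125 without CTRL replicate 2 and 0.111 over protein-coding, SNHG or GAS5 hosts alone (-0.0673 to 0.125 without 1 library). For KCl against JTE-607 it was -0.0489 and ran from -0.124 to 0.00472 without 1 library, with 0.00283 without KCl replicate 1. The cause of these changes was not tested.

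Calls kept in every fit that left out 1 library were 4 of 6 rises and 20 of 31 falls with KCl, 0 of 3 falls with JTE-607, and 4 of 9 rises and 33 of 49 falls at IM 18h. Most members held few counts, with a median of 19.6 per library, which limits the precision of their fold changes.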
